A study of Mus musculus with 12 samples.

Results

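The major histocompatibility complex (MHC) and antigen presentation genes comprised 43 of the 32419 genes listed for the cultures of primary mouse brain endothelial cells (BECs). They were chosen by symbol, as the 31 genes whose symbol starts with H2- and 12 further genes, namely B2m, Tap1, Tap2, Tapbp, Psmb8, Psmb9, Psmb10, Nlrc5, Ciita, Cd74, Erap1 and Ulbp1. The choice was made with earlier results of these data known. Of the 43 genes, 42 were listed under each environment and 41 under both. H2-Ob was listed only under NX/NG and H2-DMb2 only under OGD-R.

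RNA was sequenced from BECs of wild-type (Cort+/+) mice and of mice lacking the neuropeptide cortistatin (Cort-/-), all labelled C57BL/6 (C57BL/6J background in the methods) and aged 8 weeks, with 3 mice pooled in each replicate. Cultures were kept for 24 h in normoxia with glucose (21% oxygen, NX/NG), or were deprived of oxygen and glucose for 4 h at 1% oxygen and then reoxygenated for 20 h (OGD-R). The analysis used 3 Cort+/+ and 2 Cort-/- libraries in each environment, 10 of the 12 samples listed. The labels give a stroke model (MCAO) as the disease state of every sample, whereas the methods describe cells exposed in culture, so the groups rest on genotype and culture environment only. All groups went through the same puromycin selection for endothelial cells.

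The libraries held between 12386048 and 12390428 reads on genes, and with the effective library sizes behind the deposited values 1 read on a gene of 1 kb was worth 0.0728 to 0.0900 RPKM, the read count corrected for gene length and library size. Cort itself had 0 reads in the 4 Cort-/- libraries and 0 to 2 reads in the 6 Cort+/+ libraries, too few to check the genotype labels. Reads on the ribosomal gene Rn18s-rs5 made up 7.64% to 15.8% of 8 libraries but 0.0775% of Cort+/+ OGD-R replicate 1 and 0.0951% of Cort-/- OGD-R replicate 3. The endothelial markers Cldn5, Pecam1, Tjp1, Cdh5 and Kdr together reached 782 to 1223 RPKM. Of 11 leukocyte markers, 6 were listed in both environments and summed to 1.40 to 2.19 RPKM, nearly all of it from Csf1r, the receptor of a macrophage growth factor, while the pan-leukocyte marker Ptprc stayed at or below 0.0320 RPKM.

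MHC class I molecules consist of a polymorphic heavy chain and the light chain beta-2 microglobulin, and they show peptides from inside the cell to CD8 T cells. The immunoproteasome subunits (Psmb8, Psmb9, Psmb10) cut these peptides, Tap1 and Tap2 carry them into the endoplasmic reticulum, Erap1 trims them and tapasin (Tapbp) holds the heavy chain ready to receive them. MHC class II molecules show peptides from endosomes to CD4 T cells and need the invariant chain (Cd74) and the H2-DM peptide editor. Nlrc5 and Ciita are the transcriptional coactivators of class I and class II genes, respectively, and interferon gamma induces both sets in many cells. Ulbp1 encodes a class I-like ligand of NKG2D, the activating receptor of natural killer cells and some T cells.

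The upstream sequences of 5 class I heavy chain genes are shown first because they share short elements, with H2-Q10 as a copy of low level, followed by those of B2m and Ulbp1. RefSeq on GRCm38.p6 gave a start for 32 of the 43 genes, and the 250 bases before the first start listed were searched on both strands. The windows printed here, 5′ to 3′, run up to the base before the start and lie at chr17:35262919-35263093 (H2-D1, plus strand), chr17:34000348-34000522 (H2-K1, minus), chr17:35379442-35379616 (H2-Q4, plus), chr17:37270059-37270233 (H2-M3, plus), chr17:35469914-35470088 (H2-Q10, plus), chr2:122147512-122147686 (B2m, plus) and chr10:7473478-7473727 (Ulbp1, minus). Capitals mark, in either orientation, an NF-kB type site, the class I interferon element, the core of the interferon-stimulated response element (ISRE), TGACG and CCAAT. The NF-kB type site and the class I interferon element were chosen after these sequences had been read.
H2-D1: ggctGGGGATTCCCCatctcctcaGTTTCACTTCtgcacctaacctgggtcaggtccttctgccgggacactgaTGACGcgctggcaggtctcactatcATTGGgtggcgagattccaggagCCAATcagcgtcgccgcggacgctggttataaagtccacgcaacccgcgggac
H2-K1: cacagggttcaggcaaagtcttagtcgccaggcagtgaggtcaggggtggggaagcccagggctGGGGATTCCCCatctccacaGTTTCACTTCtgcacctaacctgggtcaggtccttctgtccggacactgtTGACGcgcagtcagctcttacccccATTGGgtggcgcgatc
H2-Q4: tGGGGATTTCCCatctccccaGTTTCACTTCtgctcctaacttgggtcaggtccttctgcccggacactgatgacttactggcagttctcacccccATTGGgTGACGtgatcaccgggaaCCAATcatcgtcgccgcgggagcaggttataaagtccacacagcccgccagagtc
H2-M3: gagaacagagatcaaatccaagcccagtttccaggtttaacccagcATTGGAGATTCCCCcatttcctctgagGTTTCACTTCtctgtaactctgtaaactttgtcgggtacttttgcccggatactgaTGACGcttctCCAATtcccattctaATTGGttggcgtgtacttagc
H2-Q10: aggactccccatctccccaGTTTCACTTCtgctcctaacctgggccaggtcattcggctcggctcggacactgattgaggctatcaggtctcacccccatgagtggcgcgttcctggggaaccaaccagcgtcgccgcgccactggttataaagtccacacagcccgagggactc
B2m: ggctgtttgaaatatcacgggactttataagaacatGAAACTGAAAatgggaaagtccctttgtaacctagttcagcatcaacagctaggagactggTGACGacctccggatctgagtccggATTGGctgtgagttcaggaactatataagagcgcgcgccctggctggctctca
Ulbp1: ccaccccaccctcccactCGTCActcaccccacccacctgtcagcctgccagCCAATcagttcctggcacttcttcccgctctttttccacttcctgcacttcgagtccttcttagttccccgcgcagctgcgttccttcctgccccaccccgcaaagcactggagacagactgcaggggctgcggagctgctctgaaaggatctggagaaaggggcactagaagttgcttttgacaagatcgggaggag

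The class I interferon element stood in the windows of 7 of the 32 genes (21.9%), namely H2-D1, H2-K1, H2-M3, H2-Q4, H2-Q6, H2-Q7 and H2-Q10, and in 0.115% of the windows of 27025 genes. The NF-kB type site stood in 6 of these 7, all but H2-Q10, and in 0.181% of all genes. Neither was found upstream of H2-T22 or H2-T23, heavy chain genes that are also expressed. The ISRE core was found upstream of B2m, H2-T22 and H2-T23, that is 9.38% of the genes against 3.04% of all. CCAAT stood in 25 of the 32 windows (78.1%) against 34.5% of all, and TGACG in 12 (37.5%) against 17.9%. TTCNNNGAA, the core of a gamma activated site, stood in 3 windows (9.38%) against 7.18%. The H2-Q genes are copies of each other, so their windows are not independent. The letters alone did not order the levels given next, since H2-Q6 (0.316 to 0.582 RPKM), H2-Q7 (0.0759 to 0.30 RPKM) and H2-Q10 (0.0207 to 0.10 RPKM) hold the same class I interferon element as H2-D1 and H2-K1.

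All 31 H2- genes lie on chromosome 17 in GENCODE vM21 (GRCm38), over 3.51 Mb, and 4 of the other 12 lie among them. Their copies are alike enough to share reads. In GENCODE transcripts, 18.5% of the 75-base words of H2-T22 and 16.05% of those of H2-T10 also occur in another gene, mostly in each other, and the shares were 17.85% for H2-Q6, 16.95% for H2-Q7, 21.2% for H2-Q5 and 65.5% for H2-Ke6, the last with an overlapping readthrough gene. For the abundant heavy chains the shares were 5.40% in H2-D1, 3.10% in H2-K1 and 7.02% in H2-Q4. With words of 40 bases, the read length in the labels, the shares were 18.99%, 14.8% and 29.65%. How such reads were assigned is not given in the sources used here, so the values of these copies are uncertain. B2m, Nlrc5, Psmb9 and Psmb10 shared no word of either length.

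Of the 43 genes, 17 averaged 1 RPKM or more over the 10 libraries, and all but H2-DMa, H2-Ke6 and Ulbp1 belong to the class I pathway. B2m, the light chain, was highest at 423 to 652 RPKM and overlapped with no other gene of the set. The classical heavy chains followed, H2-D1 at 64.3 to 98.4 RPKM and H2-K1 at 47.1 to 77.5 RPKM, with H2-D1 above H2-K1 in 10 of 10 libraries although their ranges overlapped.

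By mean, Ulbp1 came next at 31.8 to 69.9 RPKM, then Tapbp at 29.7 to 38.3 RPKM. H2-K1 was above Ulbp1 in 8 of the 10 libraries, but not in the Cort-/- NX/NG libraries. Ulbp1 was above Tapbp in 7, but not in the Cort+/+ OGD-R libraries. H2-Q4, a class Ib heavy chain, reached 11.3 to 20.8 RPKM and overlapped with neither Tapbp above it nor the peptide trimming enzyme Erap1 (7.06 to 11.0 RPKM) below it. From Erap1 down, each gene overlapped with the next one, and Psmb10 (mean 6.83 RPKM) and Tap2 (6.75 RPKM) each led in 5 of the 10 libraries. The same was true of H2-M3 (4.69 RPKM), which presents formylated peptides, and H2-Ke6 (4.48 RPKM), an oxidoreductase gene with an H2- symbol but no MHC protein. Among the class Ib chains H2-T22 averaged 7.42 RPKM, H2-T23, the Qa-1 molecule that engages NKG2A on natural killer cells, 2.57 RPKM and H2-T24 1.86 RPKM.

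**Figure D1:**
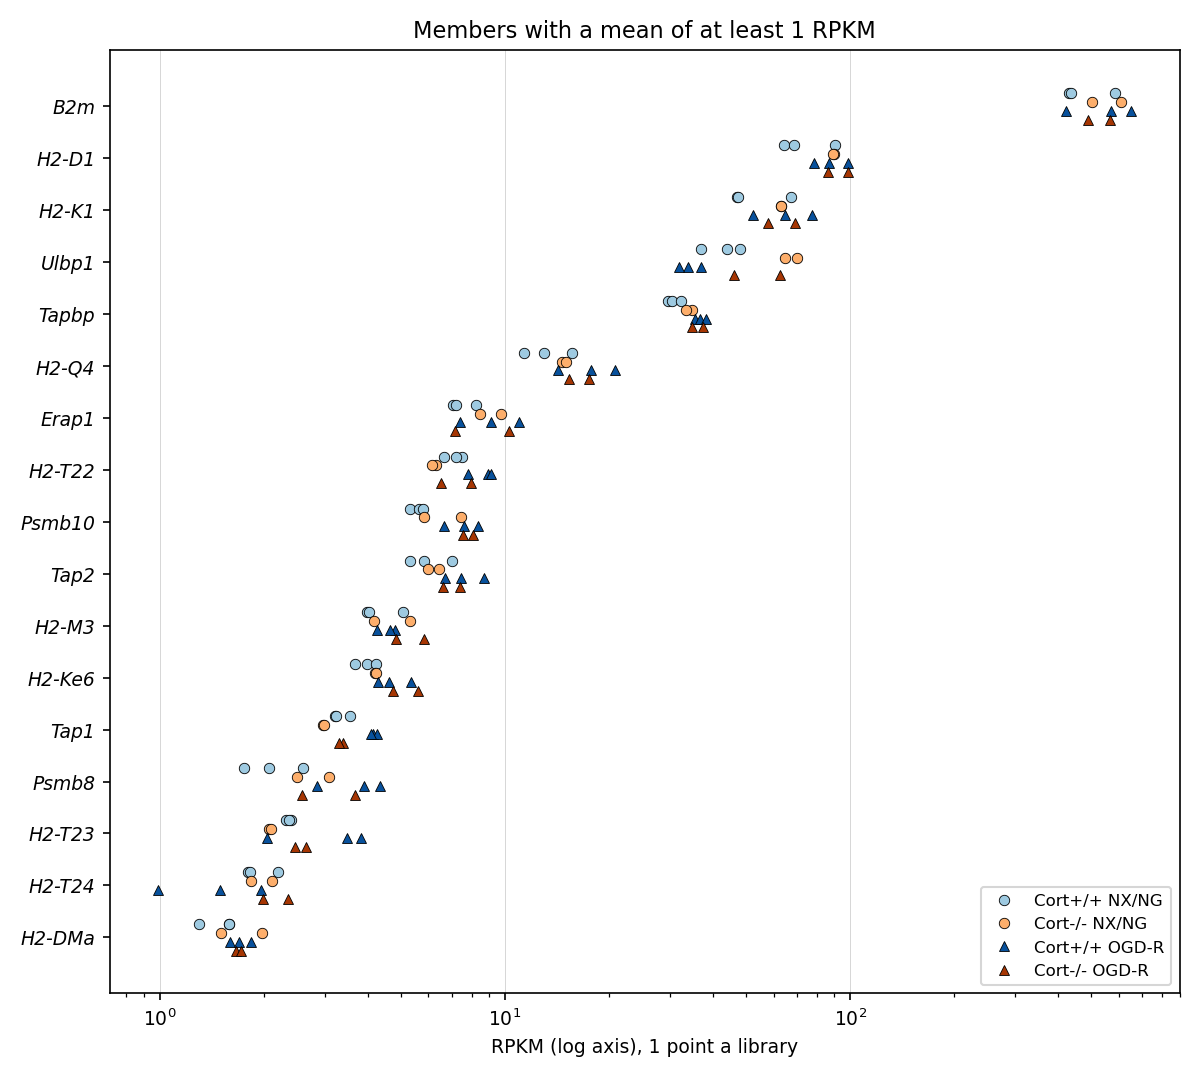
RPKM of the 17 genes averaging 1 RPKM or more on a log axis, 1 point for each of the 10 libraries, with colour and shape for genotype and environment. B2m lies at 423 to 652 RPKM, apart from all other genes, and the Ulbp1 points of Cort-/- cultures lie to the right of those of Cort+/+ cultures in the same environment.

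The 2 transporter genes and the immunoproteasome differed in level. Tap2 had 5.31 to 8.72 RPKM and Tap1 2.97 to 4.26 RPKM. Psmb8 averaged 2.94 RPKM and Psmb9 0.746 RPKM, against 6.83 RPKM for Psmb10, and the constitutive subunit Psmb5, whose place Psmb8 takes, had 63.5 to 85.4 RPKM. Nlrc5 was low, at 0.355 to 0.806 RPKM or 37 to 87 reads. The other 16 of the 21 class Ib genes stayed under a mean of 1 RPKM, and of these only H2-M1 passed 1 RPKM in any library, with 1.02 and 1.42 RPKM in Cort+/+ OGD-R replicates 2 and 3 and 0 in Cort+/+ NX/NG replicate 3.

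The class II chains, the invariant chain and Ciita had few reads or none. H2-Aa, the alpha chain of I-A, had 0 to 2 reads in a library, and H2-Ab1, its beta chain, 0 to 6 reads. H2-Eb1 reached 0.0877 to 0.4495 RPKM on 2 to 12 reads, Cd74 0 to 3 reads and Ciita 2 to 9 reads. A count of at most 3 reads in every library of every group was taken as the floor, and 7 genes lay at it, among them H2-Aa, Cd74, H2-Ob and H2-DMb2. H2-DMa, the alpha chain of the peptide editor, was the exception at 1.30 to 1.97 RPKM (55 to 87 reads), and its partner chain H2-DMb1 had 0.193 to 1.13 RPKM (4 to 26 reads). The lysosomal protease Ctss, which degrades the invariant chain in professional antigen presenting cells, was at 0 in 8 of the 10 libraries and at most 0.0663 RPKM in the others. The other 4 genes listed for the class II route were expressed, with 102 to 134 RPKM for the protease Ctsl, 43.0 to 58.2 RPKM for Mfge8, 28.97 to 44.7 RPKM for the protease Lgmn and 6.34 to 16.6 RPKM for Ifi30.

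**Figure D2:**
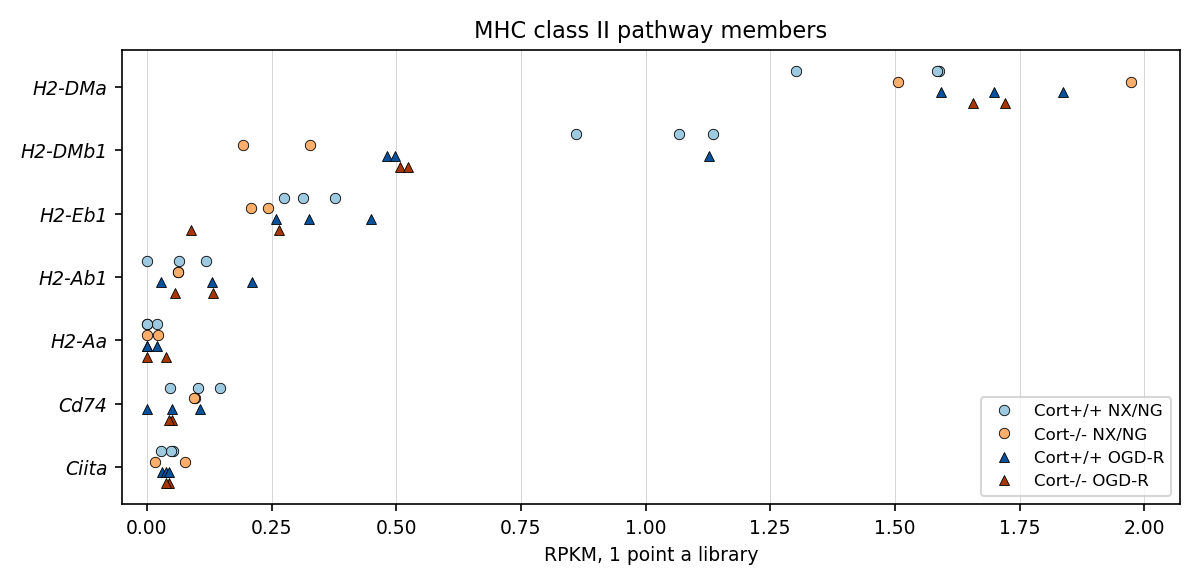
RPKM of 7 class II pathway genes, 1 point for each of the 10 libraries, with colour and shape for genotype and environment. H2-DMa lies between 1.30 and 1.97 RPKM, H2-DMb1 is spread from 0.193 to 1.13 RPKM, and H2-Eb1, H2-Ab1, H2-Aa, Cd74 and Ciita all lie under 0.5 RPKM.

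The study asked whether the lack of cortistatin changes the transcriptome of BECs in either environment. Differences are given as log2 of RPKM + 0.1, a scale that understates changes of low genes, with the standard error (SE) from limma, and a gene was called at a false discovery rate (FDR, Benjamini-Hochberg) no higher than 0.05 across the whole table. Under NX/NG none of the 42 genes was called in Cort-/- against Cort+/+, as was none of all 29965 genes (0%), while 4 of the 42 and 8.39% of all genes had an unadjusted p under 0.05. limma-voom on the reads recovered from RPKM called 1 of the 42, Ulbp1, and 0.414% of all genes. With its own pipeline the study did list genes at an FDR of 0.05 by genotype in both environments. It also listed genes by environment in both genotypes. An absence of calls here and below therefore describes these fits, and is not evidence that the transcriptomes are alike. What sets these fits apart from those of the study was not tested.

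Ulbp1 (chr10:7440362-7473638, minus strand, GENCODE vM21) had the lowest p by genotype in both environments among the 17 genes averaging 1 RPKM or more. The study had already listed Ulbp1 as upregulated in Cort-/- cells in both environments. Its rank here comes from the same cultures and is not independent of that report. Under NX/NG it had 64.6 and 69.9 RPKM in the Cort-/- libraries and 37.0, 44.0 and 48.1 RPKM in the Cort+/+ libraries, so the groups did not overlap. After OGD-R it had 62.4 and 46.1 RPKM in Cort-/- and 33.9, 31.8 and 37.0 RPKM in Cort+/+, again without overlap. The counts behind these values were 2378 to 5979 reads a library. The log2 difference was 0.65 (SE 0.12, limma FDR 0.272) under NX/NG, about 1.57-fold, and 0.65 (SE 0.16, limma FDR 0.786) after OGD-R. By limma-voom the first of these was called (0.65, SE 0.086, FDR 0.0152) and the second was not (0.65, SE 0.13, FDR 0.4498), where that test called 0.0168% of all genes.

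The genotype difference of Ulbp1 did not differ detectably between environments (log2 -0.01, 95% interval -0.49 to 0.47). A fit over all 10 libraries with the environment as a term, added after the data had been seen, gave 0.65 (SE 0.10, 95% interval 0.43 to 0.88) at an FDR of 0.0709, short of the threshold. The same fit called 0.0915% of all genes, and 6 of the 41 genes had p under 0.05 against 11.1% of all. Of the 17 genes averaging 1 RPKM or more, 13 had a positive difference in it, against 50.3% of all. In this fit Ulbp1 reached an FDR of 0.0452 among genes reaching 1 RPKM in 2 libraries or more, of which 33 of 14855 were called. It reached 0.00508 with limma-voom, which called 0.772% of all genes. Without Cort-/- OGD-R replicate 3 it reached 0.0229, where 182 of 27321 genes were called, against 25 with all 10 libraries. Over 17 alternatives the FDR of Ulbp1 ran from 0.00508 to 0.238. Both libraries low in ribosomal RNA are in the OGD-R comparison. Between them Ulbp1 stood at 46.1 RPKM in Cort-/- against 33.9 in Cort+/+, and among the others at 62.4 RPKM against 31.8 and 37.0.

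The other NKG2D ligands listed were Raet1d, Raet1e and H60b. H60b had 17.4 and 22.8 RPKM in Cort-/- under NX/NG against 11.1, 11.3 and 20.2 RPKM in Cort+/+, and the groups overlapped (log2 0.54, SE 0.31, limma FDR 0.681). Raet1e differed by 0.37 (SE 0.20, limma FDR 0.681) and Raet1d by 0.31 (SE 0.17, limma FDR 0.681) under NX/NG, also with overlap. After OGD-R the log2 differences of H60b, Raet1e and Raet1d were 0.47 (SE 0.25), 0.23 (SE 0.19) and 0.14 (SE 0.22), none with p under 0.05.

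**Figure D3:**
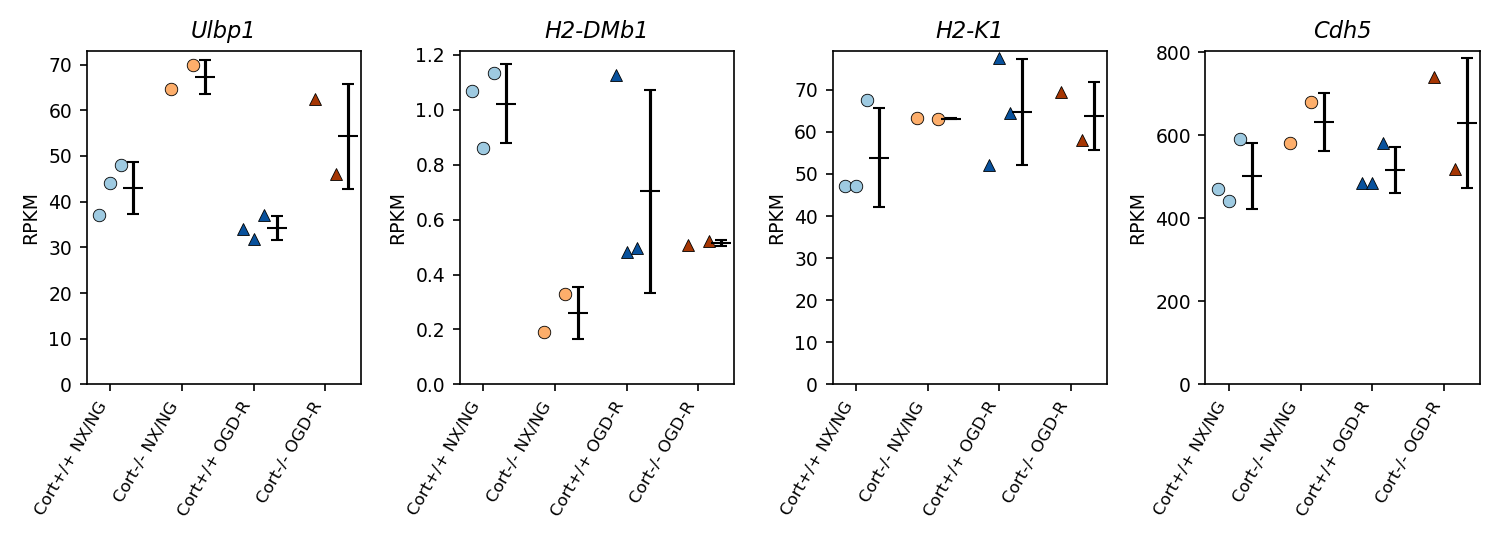
RPKM of Ulbp1, H2-DMb1, H2-K1 and the endothelial marker Cdh5, 1 point for each library, with the mean and SD of each group of 2 or 3 libraries beside the points. Ulbp1 separates the genotypes in both environments, H2-DMb1 does so under NX/NG only, and for H2-K1 and Cdh5 the third Cort+/+ NX/NG library lies apart from the other 2.

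H2-DMb1 (chr17:34153072-34160230, plus strand), a chain of the class II peptide editor, was the gene with the lowest p under NX/NG. It had 0.193 and 0.328 RPKM (4 and 7 reads) in Cort-/- and 1.07, 0.860 and 1.13 RPKM in Cort+/+, with no overlap. The log2 difference was -1.66 (SE 0.29, limma FDR 0.254). After OGD-R the Cort-/- libraries stood at 0.507 and 0.523 RPKM and the Cort+/+ libraries at 1.13, 0.482 and 0.498 RPKM, so the groups overlapped (log2 -0.29, SE 0.44). The difference between these differences was 1.37 (SE 0.53, limma FDR 1.00), so the change with environment was not called. The H2-DMb1 counts are small, and 15.8% of its 75-base words also occur in H2-DMb2.

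For the abundant class I genes the 3 Cort+/+ NX/NG replicates disagreed. H2-K1 had 63.2 and 63.1 RPKM in Cort-/- and 47.1, 47.2 and 67.5 RPKM in Cort+/+, the last of these above both Cort-/- libraries. H2-D1 had 89.9 and 89.3 RPKM in Cort-/- and 64.3, 68.7 and 90.3 RPKM in Cort+/+, and B2m had 503 and 609 RPKM against 429, 435 and 585 RPKM. The differences were within this spread, with log2 values of 0.25 for H2-K1 (95% interval -0.21 to 0.70), 0.28 for H2-D1 (-0.12 to 0.68) and 0.21 for B2m (-0.27 to 0.69). Without Cort+/+ NX/NG replicate 3, 9 of the 42 genes had p under 0.05 (11.5% of all genes in that fit) and the difference was 0.42 (limma FDR 0.17) for H2-K1 and 0.43 (limma FDR 0.209) for H2-D1, with no gene called.

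In the peptide supply and loading group, Tapbp differed by 0.15 (SE 0.056, limma FDR 0.572) and Erap1 by 0.28 (SE 0.10, limma FDR 0.58), both without overlap. Tapbp had 34.8 and 33.6 RPKM in Cort-/- and 29.7, 30.5 and 32.3 RPKM in Cort+/+. Erap1 had 8.46 and 9.76 RPKM in Cort-/- and 7.06, 7.22 and 8.25 RPKM in Cort+/+. Psmb10 (0.24, SE 0.12), Psmb8 (0.38, SE 0.20), Tap2 (0.04, SE 0.13) and Tap1 (-0.16, SE 0.091) had p above 0.05. Of the 17 genes averaging 1 RPKM or more, 14 had a positive difference and 3, Tap1, H2-T22 and H2-T23, a negative one. Their median was 0.17, against 0.01 over the 13722 genes averaging 1 RPKM or more, of which 52.2% had a positive difference. Groups did not overlap in 4 of the 17 with Cort-/- higher (Ulbp1, Tapbp, Erap1 and Psmb10, 16.4% of all genes) and in those 3 with Cort-/- lower (16.6% of all).

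Markers of the cell types in these bulk cultures differed between the same libraries. A difference in bulk RNA can come from the share of cells as well as from the RNA of each cell, and these cannot be told apart here. The 5 endothelial markers summed to 1014.5 and 1143 RPKM in Cort-/- under NX/NG and to 807, 782 and 1028 RPKM in Cort+/+. The 4 pericyte markers, Cspg4, Kcnj8, Vtn and Pdgfrb, summed to 6.13 and 9.16 RPKM in Cort-/- against 15.9 to 17.9 RPKM in Cort+/+, and the 5 fibroblast markers, Col1a1, Col1a2, Pdgfra, Lum and Dcn, to 62.8 and 93.6 RPKM against 157 to 224 RPKM, with neither group of sums overlapping. Nearly all of the fibroblast sum came from the collagen genes Col1a1 and Col1a2, while Pdgfra stood the other way, at 0.485 and 0.706 RPKM in Cort-/- against 0.319 to 0.366 RPKM in Cort+/+. Kcnj8 was at or near 0 in every library. The endothelial sum was high in the same Cort+/+ library, replicate 3, as H2-K1, H2-D1 and B2m. Of the 5 markers Kdr was the exception, at 19.1 RPKM there against 15.9 and 25.0 RPKM in Cort+/+ replicates 1 and 2. The part of these cell types in the results on class I genes and Ulbp1 was not tested.

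After OGD-R, of the 42 genes none was called, as was none of 29775 (0%), and 2 had p under 0.05 against 3.42% of all genes. They were Ulbp1 and Tap1. Tap1, a subunit of the peptide transporter, had 3.39 and 3.31 RPKM in Cort-/- and 4.14, 4.26 and 4.08 RPKM in Cort+/+, with no overlap. Its log2 difference was -0.30 (SE 0.11, limma FDR 0.978). Under NX/NG the same gene had 2.97 and 2.99 RPKM in Cort-/- and 3.56, 3.22 and 3.25 RPKM in Cort+/+ (log2 -0.16, SE 0.091), so Cort-/- was the lower group without overlap in both environments. The fit over both environments gave -0.23 (SE 0.063, limma FDR 0.228).

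H2-K1 differed after OGD-R by -0.01 (95% interval -0.49 to 0.47), B2m by -0.03 (-0.74 to 0.67) and H2-D1 by 0.07 (-0.28 to 0.42). H2-T22, whose product is seen by gamma delta T cells, differed by -0.25 (SE 0.13) and, in the fit over both environments, by -0.22 (SE 0.073, limma FDR 0.317). Of the 17 genes averaging 1 RPKM or more, 6 had a positive difference and 11 a negative one, with a median of -0.03 against -0.01 for all genes. Without Cort+/+ OGD-R replicate 1 the median was -0.16 and without Cort-/- OGD-R replicate 3 it was 0.07. Groups did not overlap in 3 of the 17 with Cort-/- higher (Ulbp1, H2-T24 and H2-M3, 7.87% of all genes, where 47.6% had a positive difference) and in 1, Tap1, with Cort-/- lower (8.23% of all). The endothelial sums overlapped in this environment, at 904 and 1223 RPKM in Cort-/- against 840 to 1020 RPKM in Cort+/+. So did the pericyte sums, at 13.8 and 16.6 RPKM against 15.4 to 20.99 RPKM, and the fibroblast sums. The sums of the epithelial markers Epcam, Krt8, Krt18 and Cdh1 did not overlap, at 8.81 and 37.0 RPKM in Cort-/- against 1.43 to 7.45 RPKM in Cort+/+. The 8.81 RPKM, in Cort-/- replicate 3, was nearly all Krt18 (8.67 RPKM). In that library Epcam was at 0 and Krt8, at 0.0749 RPKM, lay below the Cort+/+ libraries (0.128 to 0.260 RPKM). Its Cdh1, at 0.0641 RPKM on 4 reads, lay above them. The part of epithelial and other such cells in the differences after OGD-R was not tested.

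**Figure D4:**
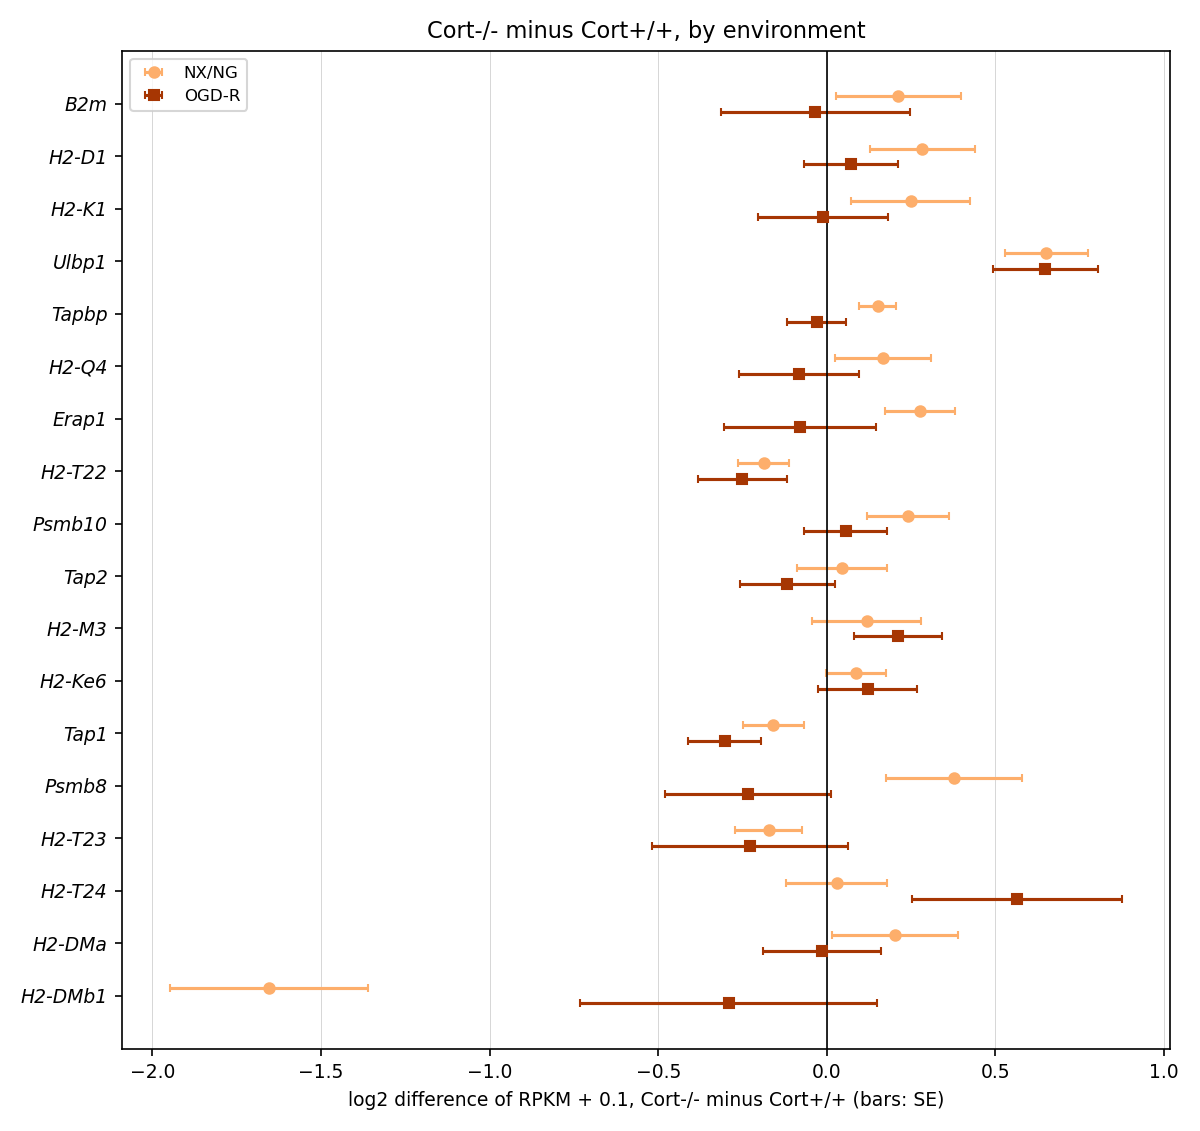
Log2 difference of RPKM + 0.1, Cort-/- minus Cort+/+, for the 17 genes averaging 1 RPKM or more and H2-DMb1, with the SE as bars, under NX/NG (light circles) and after OGD-R (dark squares). Ulbp1 lies at 0.65 in both environments, H2-DMb1 at -1.66 under NX/NG and -0.29 after OGD-R, and none of these values was called by limma.

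The second question was how BECs of each genotype differ after OGD-R from those kept under NX/NG, for which reads of both environments were scaled together. In Cort+/+ cells none of the 41 genes was called, against 0.0332% of 27075 genes, and 5 had p under 0.05 against 5.48% of all. Of these 5, 4 belong to the peptide supply and loading group and stood higher after OGD-R, and the other, Ulbp1, stood lower. The deposited RPKM given next were scaled within each environment, whereas the log2 differences rest on the joint scaling.

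Psmb8, the inducible proteasome subunit, had 2.07, 1.76 and 2.59 RPKM under NX/NG and 2.84, 3.92 and 4.33 RPKM after OGD-R. The groups did not overlap, with a log2 difference of 0.69 (SE 0.21, limma FDR 0.881). Psmb10, another such subunit, had 5.31, 5.62 and 5.80 RPKM under NX/NG and 6.66, 8.34 and 7.61 RPKM after OGD-R (log2 0.35, SE 0.10, limma FDR 0.881).

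Tap1 had 3.56, 3.22 and 3.25 RPKM under NX/NG and 4.14, 4.26 and 4.08 RPKM after OGD-R (log2 0.24, SE 0.087, limma FDR 0.881). Tapbp had 29.7, 30.5 and 32.3 RPKM under NX/NG and 35.6, 36.7 and 38.3 RPKM after OGD-R (log2 0.19, SE 0.061, limma FDR 0.881). Neither gene overlapped between environments. Psmb9 had 0.513 to 0.640 RPKM under NX/NG and 0.676, 1.21 and 1.17 RPKM after OGD-R.

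Ulbp1 went the other way, from 37.0, 44.0 and 48.1 RPKM under NX/NG to 33.9, 31.8 and 37.0 RPKM after OGD-R in Cort+/+ cells. The deposited values overlapped marginally, since the highest OGD-R library and the lowest NX/NG library both stood at 37.0 RPKM. On the joint scale the groups did not overlap and the log2 difference was -0.39 (SE 0.11, limma FDR 0.881). In Cort-/- cells the difference was -0.40 (SE 0.18, limma FDR 0.922) from 64.6 and 69.9 RPKM to 62.4 and 46.1 RPKM.

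For 3 heavy chains and B2m the interval of the environment difference included 0. H2-K1 differed in Cort+/+ cells by 0.19 (95% interval -0.28 to 0.66), H2-D1 by 0.18 (-0.19 to 0.54), B2m by 0.10 (-0.42 to 0.63) and H2-Q4 by 0.32 (-0.09 to 0.74). H2-T22 had 7.53, 6.64 and 7.19 RPKM under NX/NG and 7.83, 8.92 and 9.12 RPKM after OGD-R, without overlap in the deposited values but with overlap on the joint scale (log2 0.20, 95% interval -0.01 to 0.41). Of the 17 genes averaging 1 RPKM or more, 15 had a positive difference, with Ulbp1 and H2-T24 as the exceptions, against 51.6% of all 13804 genes. The median was 0.19 against 0.01 for all genes, and with the deposited scaling both moved, to 0.27 and 0.08. Groups did not overlap in 4 of the 17 with OGD-R higher (7.67% of all) and in 1 with OGD-R lower (5.18% of all).

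The count of genes with p under 0.05 hung on single libraries. Without Cort+/+ OGD-R replicate 1, one of the libraries low in ribosomal RNA, it was 11 of 41 (6.77% of all genes in that fit), with H2-T23 at 0.54 (limma FDR 0.466) among them, and without Cort+/+ NX/NG replicate 3 it was 9 (4.42% of all). Without Cort+/+ OGD-R replicate 3 it was 2 (5.91% of all). None was called in any of these fits. The highest values of Psmb8 (4.33 RPKM), H2-T23 (3.82 RPKM) and Tap2 (8.72 RPKM) over the 10 libraries all stood in Cort+/+ OGD-R replicate 3.

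In Cort-/- cells none of the 41 genes was called and none had p under 0.05, against 0% and 4.08% of all 26523 genes. Psmb8 had 2.49 and 3.10 RPKM under NX/NG and 3.68 and 2.58 RPKM after OGD-R (log2 0.07, 95% interval -0.59 to 0.73). Tap1 differed by 0.09 (-0.25 to 0.42), Tapbp by 0.00 (-0.24 to 0.24) and H2-K1 by -0.07 (-0.41 to 0.27). With 2 libraries a group the intervals are wide, and the values of Psmb8 and Tap1 in Cort+/+ cells lie within them. Of the 17 genes averaging 1 RPKM or more, 11 had a positive difference, with a median of 0.07 against -0.01 over all genes, of which 47.9% were positive. Groups did not overlap in 3 of the 17 with OGD-R higher (16.1% of all) and in 1 with OGD-R lower (18.1% of all).

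**Figure D5:**
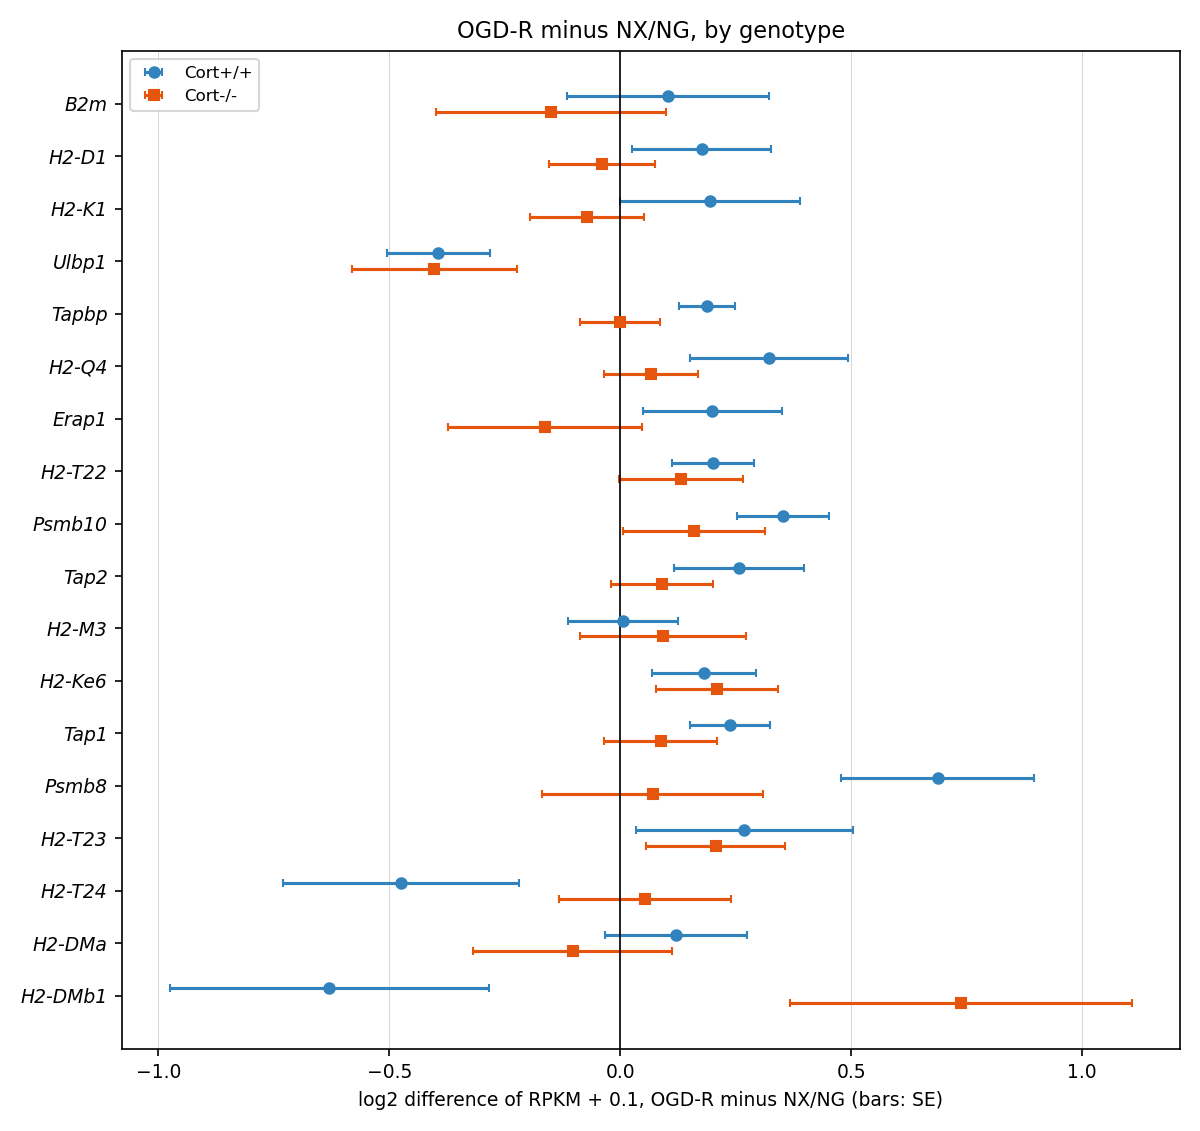
Log2 difference of RPKM + 0.1 on the joint scale, OGD-R minus NX/NG, for the 17 genes averaging 1 RPKM or more and H2-DMb1, with the SE as bars, in Cort+/+ (circles) and Cort-/- (squares) cells. Psmb8 lies at 0.69 in Cort+/+ and 0.07 in Cort-/-, Ulbp1 at -0.39 and -0.40, and no value was called by limma.

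Whether the change with environment differed by genotype was tested with the interaction. None of the 41 genes was called, against 0.011% of all genes, and only H2-DMb1 had p under 0.05, against 2.85% of all. The value for Psmb8 was -0.62 (SE 0.34, limma FDR 1.00), for Tapbp -0.19 (SE 0.095, limma FDR 1.00) and for H2-K1 -0.27 (SE 0.28). No gene of the set was thus shown to respond differently by genotype. The interaction was negative for all 6 genes of the peptide supply and loading group with at least 1 RPKM, from -0.62 to -0.15, and for 14 of the 17 genes, with a median of -0.19 against -0.02 over all genes, of which 45.8% were positive. The genes share the 10 libraries, so these counts are not independent of one another.

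The partner genes of antigen presentation were followed in lists of 51 genes, of which 49 were tested under NX/NG, 50 after OGD-R and 48 between the environments of each genotype. None was called in any comparison. In Cort-/- against Cort+/+ under NX/NG, 1 had p under 0.05 with Cort-/- higher and 3 with Cort-/- lower, 4 of 49 against 8.39% of all genes. The former was Tapbpl, a peptide editor related to tapasin, at 6.23 and 7.36 RPKM in Cort-/- against 5.51, 5.53 and 5.93 RPKM in Cort+/+ (log2 0.26, SE 0.095, limma FDR 0.572).

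Cd80, a costimulatory ligand of T cells, had 7.02 and 5.42 RPKM in Cort-/- and 15.0, 11.7 and 10.4 RPKM in Cort+/+ under NX/NG, and 6.95 and 10.1 RPKM against 12.3, 15.2 and 14.2 RPKM after OGD-R. The groups did not overlap in either environment, with log2 differences of -0.97 (SE 0.19, limma FDR 0.2995) and -0.71 (SE 0.19, limma FDR 0.941). Ifi30, the lysosomal thiol reductase of the class II route, had 7.77 and 6.34 RPKM in Cort-/- and 13.9, 11.5 and 11.6 RPKM in Cort+/+ under NX/NG (log2 -0.80, SE 0.13, limma FDR 0.238). Fcgrt, the neonatal Fc receptor, which pairs with B2m, differed by -0.43 (SE 0.083, limma FDR 0.282) under NX/NG and by -0.41 (SE 0.16, limma FDR 0.978) after OGD-R. The fibroblast and pericyte sums given above were also lower in these Cort-/- NX/NG libraries, and their part in these differences was not tested.

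In Cort+/+ cells after OGD-R, 9 of the 48 partner genes had p under 0.05 with OGD-R higher and 0 with it lower, against 5.48% of all genes in either direction. Of these, Tapbpl differed by 0.44 (SE 0.088, limma FDR 0.656), Psme1 by 0.28 (SE 0.074, limma FDR 0.861) and Psme2 by 0.40 (SE 0.11, limma FDR 0.881), the last pair being the subunits of the proteasome activator PA28. Irf1, a transcription factor downstream of interferon gamma, differed by 0.26 (SE 0.074, limma FDR 0.881), from 6.87, 6.66 and 7.11 RPKM to 8.24, 8.50 and 9.30 RPKM. Of the 12 interferon gamma signalling genes, 10 had at least 1 RPKM and all 10 had a positive difference in this comparison, with 1 at p under 0.05. In Cort-/- cells 0 of the 48 had p under 0.05, and 3 of those 10 were positive and 7 negative. For Cort-/- against Cort+/+, all 10 were positive under NX/NG and 5 after OGD-R, none with p under 0.05. The comparison of environments in Cort+/+ cells and that of genotypes under NX/NG share the 3 Cort+/+ NX/NG libraries.

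Interferon genes also set single libraries apart within groups. Irf7, a transcription factor induced by interferon, had 2.15 RPKM in Cort-/- NX/NG replicate 2 and 1.95 RPKM in Cort+/+ OGD-R replicate 3, against 0.622 to 1.17 RPKM in the other 8 libraries. Irf9, another such factor, had 6.56 and 5.72 RPKM in the same 2 libraries, with 3.01 to 4.18 RPKM in the others. Nlrc5, the class I coactivator, also had its highest value, 0.806 RPKM, in Cort-/- NX/NG replicate 2 and its next, 0.699 RPKM, in Cort+/+ OGD-R replicate 3, but Cort+/+ NX/NG replicate 3 followed closely at 0.664 RPKM. Nlrc5 did not differ by genotype beyond this spread (log2 0.39, SE 0.39, under NX/NG and -0.03, SE 0.37, after OGD-R). Epithelial transcripts (Epcam, Krt8, Krt18 and Cdh1 summed) stood at 49.6 RPKM in Cort+/+ NX/NG replicate 2 and 37.0 RPKM in Cort-/- OGD-R replicate 1, against 1.43 to 13.6 RPKM in the others, and H2-K1 stood at 47.2 and 69.4 RPKM in these 2 libraries.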

How the data were processed

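RNA-seq values of 10 libraries were used, with groups and replicate numbers from the labels, which call the replicates independent experiments. The RPKM values were deposited by the authors, who ran their reanalyzerGSE pipeline and scaled the 5 libraries of each environment apart from the other environment. The labels name edgeR, and the aligner, counter and genome build are not given in the sources used here. The labels and the methods name different library kits and read lengths. The authors' own comparison columns (fold changes, p-values, FDR) and 10 columns of expression categories were not used.

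RPKM times length lay within 0.05 of whole reads for at least 99.9958% of values, so reads were recovered. Each comparison was fitted with limma 3.58.1 in R 4.3.3 (trend, two-sided) on log2(RPKM + 0.1) over genes above 0, with Benjamini-Hochberg adjustment over the whole table. Comparisons across environments used reads of the 27321 genes common to both tables after joint TMM scaling. The scripts were tested on simulated data. Alternatives were a pseudocount of 1, a filter at 1 RPKM in 2 libraries, other scalings, limma-voom, 4 groups in one fit, the replicate number as a block, a term for libraries with under 1% ribosomal reads, and each library left out in turn. Where 1 library of a group remained, it was assumed to vary like the others.

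The members and lists were chosen with earlier results of these data known. Named were members averaging 1 RPKM or more, members with a group mean of 1 RPKM or more and p under 0.05, a fixed list of class II genes and regulators, and up to 4 partner genes a comparison. Psmb9, Psmb5, Ctss, Ctsl, Lgmn, Mfge8, H2-M1, the H2-Q copies, Irf7, Irf9 and the other NKG2D ligands were named after their values had been seen.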

Additional observations from a re-analysis of the deposited data

Results flagged for a closer look

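H2-DMb1 was the only gene of the set whose genotype difference differed between environments at an unadjusted p under 0.05. The difference of differences, OGD-R minus NX/NG, was 1.37 on the log2 scale (SE 0.53, limma FDR 1.00), and it did not pass the threshold. The value kept its sign in 17 of 17 alternatives, from 0.55 to 1.72, and had an unadjusted p under 0.05 in 9 of them. Cort+/+ OGD-R replicate 1, which is low in ribosomal RNA, held 1.13 RPKM against 0.482 and 0.498 RPKM in the other two replicates of its group, and without it the value was 1.72 (limma FDR at least 0.922 over the alternatives). The groups held 2 or 3 libraries, too few for a test of single outlying values.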

How the results depend on the processing

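No gene of the set was called in the 5 planned comparisons. Where each group kept 2 libraries or more, this held under all alternatives but 1. For genotype under NX/NG, limma-voom called 1 gene (Ulbp1), and 0.414% of all genes. After OGD-R, H2-Q2, a gene with at most 2 reads in any library, was called only without Cort-/- OGD-R replicate 1. That fit kept 1 Cort-/- library and its calls rose over the whole table, so this call is not read as a result on H2-Q2. In the added fit over both environments 1 gene (Ulbp1) was called under the filter at 1 RPKM, with 33 of 14855 genes called in all. Under limma-voom 1 gene (Ulbp1) was called, and 0.772% of all genes. With a library left out 0 to 1 genes were called, the 1 being Ulbp1 without Cort-/- OGD-R replicate 3, where 182 of 27321 genes were called.

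Counts of genes at an unadjusted p under 0.05 moved more. For genotype under NX/NG the count was 9 without Cort+/+ NX/NG replicate 3 (11.5% of all genes in that fit). For environment in Cort+/+ cells, leaving out 1 library gave 2 to 11 genes. The 11 came without Cort+/+ OGD-R replicate 1 (6.77% of all) and the 2 without Cort+/+ OGD-R replicate 3 (5.91% of all). For the interaction the count was 4 without Cort+/+ OGD-R replicate 1. Leaving out a Cort-/- library left 1 in its group, and counts from such fits are not given. The term for ribosomal reads gave 12 genes for environment in Cort+/+ cells and 6 in Cort-/- cells, where limma-voom and the fit of 4 groups gave 1 each. Deviations of same-numbered libraries from their group means correlated at -0.53 to 0.19 over genes. With 2 or 3 libraries a group, these correlations cannot settle whether libraries of the same number were paired. With the replicate number as a block, the count was 7 for genotype under NX/NG, 0 after OGD-R and 0 for the interaction, and no gene was called. For environment in Cort-/- cells the libraries share 1 number only, so no such fit was made. Where no share of all genes stands beside a count here, the count describes the fit and is not read as a result on the set. The cause of these shifts was not tested. Values of single partner genes were not compared across settings. No difference of a member named by the rule at an unadjusted p under 0.05 changed sign under an alternative. With 2 Cort-/- libraries in each environment, and 1 read worth 0.0728 RPKM or more on 1 kb, the class II chains had 0 to 12 reads a library. Changes of these chains could therefore be missed. H2-Eb1 was lower in Cort-/- under NX/NG without overlap, at 0.208 and 0.243 RPKM against 0.274 to 0.378 RPKM. After OGD-R its groups overlapped. Its difference in the added fit over both environments was negative in 16 of 16 alternatives and called in none of them.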
